A study of Rattus norvegicus with 9 samples.

Results

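The Gadd45 family of rat has 3 members, Gadd45a, Gadd45b and Gadd45g, and all 3 were measured on the arrays analysed here. Members were chosen by name, as every probe whose gene name on the array is one of the 3, which gave 3 of 35561 distinct gene names, on 3 of 41012 probes, 1 for each gene. The study asked which genes respond when firing returns to silenced neurons. Cultures of dissociated cortical neurons from prenatal rats were fed B27 or NS21 supplement in Neurobasal and used after 11 to 15 days in culture. All had spent 48 h under tetrodotoxin (TTX), which stops action potentials by blocking sodium channels of the membrane. Messenger RNA was measured on 9 single-colour arrays, 3 in each of 3 groups: cells still silenced (TTX), and cells 15 min (W15) and 45 min (W45) past washout, for which 3 rinses had taken the toxin away. No group was washed without return of activity, so effects of the wash itself and of the returned firing cannot be told apart. The cultures were made from whole dissociated cortices, and the labels call the cells mature neurons.

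GADD45 proteins are small acidic proteins without a known enzymatic activity of their own. They act by binding partners, among them the kinase MAP3K4, which feeds the p38 and JNK stress kinase pathways, the replication clamp PCNA, and the cyclin-dependent kinase CDK1. They were named for their induction by growth arrest and DNA damage, and Gadd45a is a classical target of p53. In neurons the family is better known through Gadd45b, which has been described in mouse hippocampus as an activity-induced gene needed for demethylation of DNA at regulatory regions of Bdnf and Fgf1, and Gadd45g has been described as an activity-regulated gene as well.

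The family rests here on 1 probe per gene, so the probes are shown. The first 30 of the 60 bases of each are given 5′ to 3′, as the array files hold them, with no base singled out.
Gadd45a: aacggtgattccccgaacggtgatggcatc
Gadd45b: aaccagtgggtcccctatatctctctggag
Gadd45g: agcgaggcaggtgtgactcagcaagcagcc
In the rn3 build, which the file headers name, the Gadd45a probe (NM_024127) is placed on chromosome 4 at 96894935 to 96894994, and the Gadd45g probe (XM_237999) on chromosome 17 at 19231059 to 19231118. For the Gadd45b probe (NM_001008321) the files give 28 bases on chromosome 7, 10289049 to 10289076, which is shorter than the probe. All 3 are on the minus strand. Which exon or untranslated region each probe lies in was not analysed here.

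Signals of all 3 probes stood well above background on all 9 arrays and were saturated on none. The 75th percentile of the signal was 1556 to 2521 and was highest on TTX replicate 3. On every array 72.4 to 77.9% of the probes were above background, and arrays of a group correlated at 0.984 to 0.996 across probes. Values are log2 signals minus the array's own 75th percentile, so 0 is the level of that percentile. The number of arrays limits the precision, and as nothing states that the replicates were separate cultures, p-values measure only the spread between these samples, which may be technical. Markers of the labelled cell type were present, since 11 of 11 neuronal markers passed the filter on dim probes. Of the markers of other cells, 7 of 7 of astrocytes, 7 of 7 of oligodendrocytes and 3 of 6 of microglia passed, with Aif1, Itgam and Cx3cr1 among those that did not. None of the markers of 6 cell types was called in any comparison. Of all probes, 0.0198% (15 min against TTX), 0.198% (45 min against TTX) and 0.129% (45 against 15 min) were called in either direction.

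Gadd45g and Gadd45b both rose after washout, and Gadd45a was called in no comparison. At 45 min Gadd45g was 6.77-fold and Gadd45b 6.22-fold above TTX, and both rose further between 15 and 45 min. For Gadd45b the call between 15 and 45 min was lost in several alternative fits. At 15 min only Gadd45g passed the test, and that call was lost in several alternative fits, among them the one with replicate number as a block. Each member was tested with limma in 1 fit over the 30322 probes kept, with Benjamini-Hochberg adjustment over all of them.

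**Figure D1:**
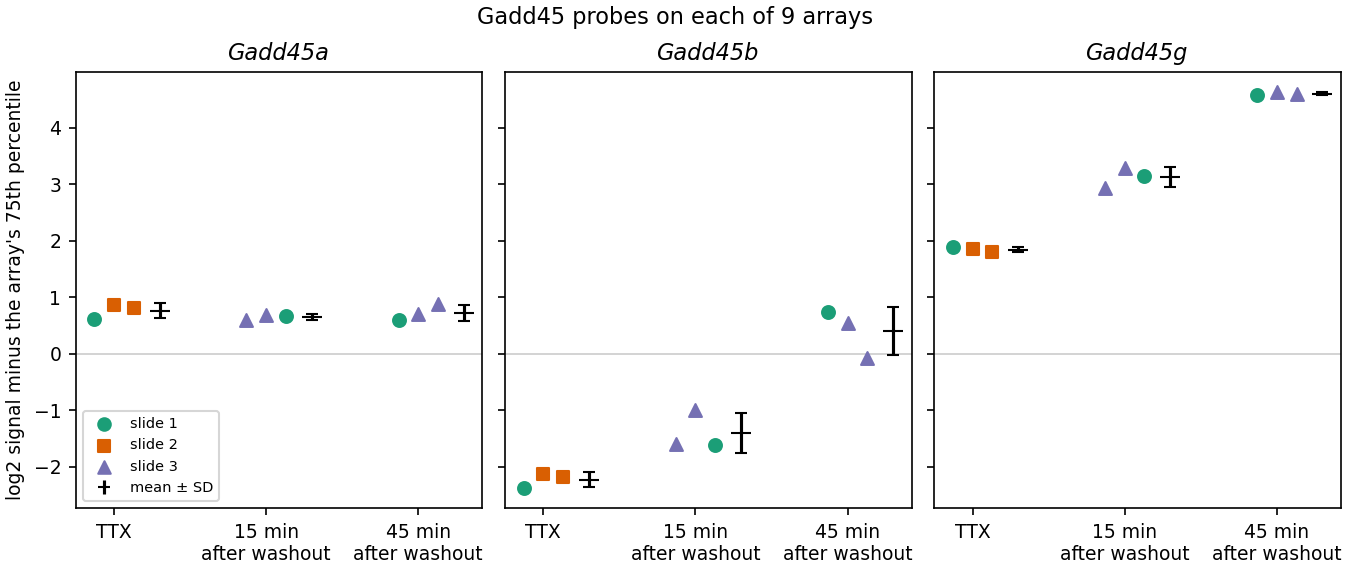
Each point is 1 array, drawn by slide, and the bar beside the points is the mean ± SD of 3 arrays; the vertical axis is the log2 signal minus the array's 75th percentile. Gadd45a sits between 0.59 and 0.87 on all arrays, Gadd45b climbs mostly between 15 and 45 min, and the 3 arrays of Gadd45g at each time lie above every array of the time before.

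Gadd45g is the member whose protein was first studied as a cytokine-responsive regulator of cell growth. On the 3 TTX arrays its log2 signal was 1.89, 1.85 and 1.80. On the W15 arrays it was 2.94, 3.29 and 3.15, and on the W45 arrays 4.58, 4.63 and 4.59. The 3 groups did not overlap, and the W45 arrays lay closest together, with SDs of 0.04 in TTX, 0.17 at 15 min and 0.03 at 45 min. Of all probes, 9.85% lay wholly higher at 15 min than in TTX, 8.35% at 45 min than in TTX and 4.03% at 45 min than at 15 min. In processed signal, before scaling between arrays, the means were 7350 ± 1235 in TTX, 15508 ± 2485 at 15 min and 41118 ± 2657 at 45 min (SD, n = 3 each).

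At 15 min Gadd45g rose 2.43-fold over TTX, a log2 change of 1.28 ± 0.13 (SE, n = 3 arrays per group, limma adjusted p = 0.0122). It was 1 of 6 probes called higher in that comparison, 0.0198% of those tested, and its log2 change ranked 20 of 30322. This call rested on small margins. Without W15 replicate 2 or 3 the limma adjusted p was 0.0717 or 0.0788, and without TTX replicate 1, 2 or 3 it was 0.114, 0.125 or 0.148, with a log2 change of 1.20 to 1.37 over all 9 fits that leave out 1 array. It was also lost with slide as a fixed block (1.24, limma adjusted p = 0.775), where 0 probes were called, and with the replicate block (1.28, limma adjusted p = 0.0749). Between 15 and 45 min Gadd45g rose a further 2.79-fold, a log2 change of 1.48 ± 0.13 (limma adjusted p = 0.00142), and this call held without any 1 of the 9 arrays. Within slide 3 alone, with 2 arrays per group, the change was 1.50 and not called (limma adjusted p = 0.238), in a fit that called 0 probes. Against TTX the rise at 45 min was 2.76 ± 0.13 on the log2 scale (limma adjusted p = 1.02e-05), with a 95% confidence interval of 2.48 to 3.04.

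Gadd45b encodes the member known as an early target of NF-kB and TGF-beta signalling and, in neurons, of synaptic activity. On the TTX arrays its log2 signal was -2.39, -2.13 and -2.18, the lowest of its 3 groups. On the W15 arrays it was -1.60, -1.001 and -1.62, and on the W45 arrays 0.75, 0.55 and -0.08. The groups did not overlap here either, but the arrays after washout were more spread than those of Gadd45g, with SDs of 0.14 in TTX, 0.35 at 15 min and 0.43 at 45 min. W15 replicate 2 was the highest of its group and W45 replicate 3 the lowest of its own. The mean processed signal was 440.2 ± 106.1 in TTX, 677.6 ± 170.3 at 15 min and 2316 ± 737.4 at 45 min (SD, n = 3 each). Even in TTX the signal was 30.5 to 32.6 times the lowest signal that counted as above background on the same array.

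Gadd45b rose 6.22-fold at 45 min over TTX, a log2 change of 2.64 ± 0.24 (SE, n = 3 arrays per group, limma adjusted p = 0.00179), with a 95% confidence interval of 2.09 to 3.18. With slide as a fixed block the change was 2.85 and missed the threshold (limma adjusted p = 0.146). Between 15 and 45 min it rose 3.51-fold, or 1.81 ± 0.24 on the log2 scale (limma adjusted p = 0.0298). That call was kept in 6 of 11 alternatives with a test. It was lost with slide as a fixed block (limma adjusted p = 0.12) and with the replicate block (limma adjusted p = 0.0549). It was also lost when any of 6 arrays was left out. The limma adjusted p was 0.0696, 0.0785 and 0.0889 without TTX replicates 1, 2 and 3, 0.168 and 0.108 without W15 replicates 1 and 3, and 0.175 without W45 replicate 2, while the log2 change over the 9 such fits lay between 1.64 and 2.05. At 15 min against TTX the log2 change of Gadd45b was 0.82 ± 0.24 and not called (limma adjusted p = 0.98, unadjusted p = 0.00724), although its 3 W15 arrays lay above its 3 TTX arrays. Arrays that lie apart in that direction are common in this comparison, since 9.85% of all probes show it.

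Gadd45a, the p53-responsive member, stayed within a narrow band. Its log2 signal was 0.62, 0.86 and 0.81 on the TTX arrays, 0.60, 0.69 and 0.66 on the W15 arrays, and 0.59, 0.70 and 0.87 on the W45 arrays. The groups overlapped in all comparisons. The log2 change was -0.11 ± 0.13 at 15 min (limma adjusted p = 0.98) and -0.04 ± 0.13 at 45 min against TTX (limma adjusted p = 0.973), and 0.07 ± 0.13 between 15 and 45 min (limma adjusted p = 0.929). The interval at 45 min runs from 0.794-fold to 1.19-fold of TTX, which leaves out a change of the size seen for the other members. The small negative value at 45 min is not a direction, since it became 0.15 when the background was corrected by normexp, which models it from the spots, and 0.04 with slide as a fixed block.

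**Figure D2:**
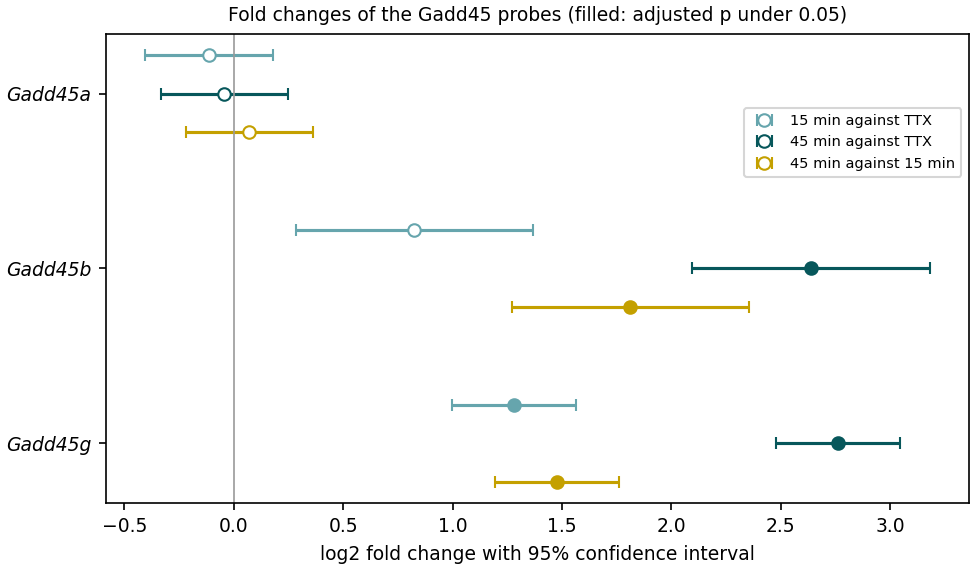
Points are log2 fold changes from limma and bars their 95% confidence intervals, for each member and each of the 3 comparisons; filled points have an adjusted p under 0.05. The intervals of Gadd45a include 0 in all 3 comparisons, and at 45 min against TTX the intervals of Gadd45b (2.09 to 3.18) and Gadd45g (2.48 to 3.04) cover each other's point estimate.

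Of the 3 members, 2 were called higher at 45 min against TTX, where 0.175% of all probes were, and 2 were called higher at 45 min against 15 min, where 0.119% were. Among 30322 log2 changes at 45 min against TTX, Gadd45g ranked 16 and Gadd45b ranked 19, counted from the largest rise, and Gadd45a ranked 20368. The members were chosen with earlier results of these data known, so these shares and ranks describe them and are not a test. The arrays of Gadd45b and Gadd45g at 45 min lay wholly above those in TTX, as did those of 8.35% of all probes, and wholly above those at 15 min, as did those of 4.03%. The comparisons with TTX use the same 3 TTX arrays, so their values for a member are not independent. The mean log2 change of Gadd45g at 15 min was 46.4% of that at 45 min, and the one of Gadd45b 31.3%.

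**Figure D3:**
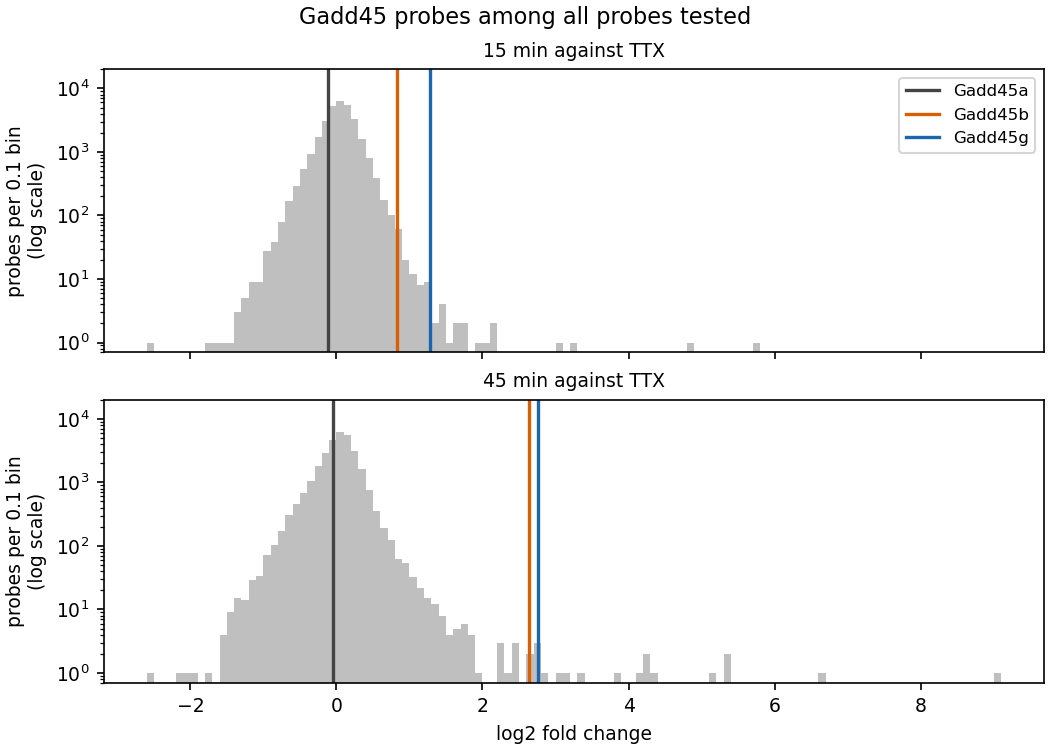
Grey bars count probes by log2 fold change against TTX in bins of 0.1 (log scale), at 15 min above and at 45 min below, and coloured lines mark the 3 members. At 45 min Gadd45b (2.64) and Gadd45g (2.76) lie in the thin right tail, while Gadd45a (-0.04) lies within the bulk.

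Whether the members changed by unequal amounts was tested on the difference between the log2 values of a pair on the same array, which is unaffected by a scaling that divides each array by 1 factor. All 1680 ways to divide the 9 arrays into the 3 groups were run for each of the 3 pairs. Gadd45g changed differently from Gadd45a (exact permutation p = 0.00357, adjusted over the 3 pairs p = 0.00536), and so did Gadd45b (the same values). These are the smallest p-values the test can give. Between TTX and 45 min Gadd45g rose by 2.80 ± 0.12 more than Gadd45a and Gadd45b by 2.68 ± 0.33 more (log2, SE, n = 3 arrays per group). For Gadd45g against Gadd45b no difference was shown (exact permutation p = 0.232, adjusted p = 0.232). Gadd45g had changed by 0.46 ± 0.17 more than Gadd45b at 15 min and by 0.12 ± 0.27 more at 45 min, each relative to TTX, and with 3 arrays in each of 2 groups the smallest exact p is 0.1.

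The arrays came from 3 slides. Slide 1 carried 1 array of each group (W45 replicate 1, W15 replicate 3 and TTX replicate 1), slide 2 carried only the other 2 TTX arrays, and slide 3 carried the remaining 4, all from after washout. Slide and group are therefore partly confounded in the comparisons with TTX. Slide 1 alone has 1 array per group and gives values with no test. There the log2 signal at 15 min minus TTX was 1.26 for Gadd45g, 0.77 for Gadd45b and 0.04 for Gadd45a, and at 45 min minus TTX it was 2.70 for Gadd45g, 3.13 for Gadd45b and -0.03 for Gadd45a. Both Gadd45b and Gadd45g were thus above TTX at both times on a slide shared by the 3 groups.

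The genes whose course over the 9 arrays was nearest to that of each responding member were found by the root mean square difference of log2 values, each taken relative to its own TTX mean, among 16112 probes with a gene symbol. For Gadd45b the nearest was Ier2, an immediate early response gene, at 0.28, then the chemokine gene Cxcl1 (0.34), Gadd45g (0.37), the small GTPase gene Rasl11a (0.40) and Dusp1, a phosphatase of MAP kinases (0.40). For Gadd45g the same 4 genes and Gadd45b came first, led by Ier2 (0.35) and Gadd45b (0.37), followed by Rasl11a (0.50), Dusp1 (0.55) and Cxcl1 (0.63). The median over all genes searched, each by its nearest probe, was 1.58 for Gadd45b and 1.72 for Gadd45g. The points share arrays and TTX baseline, and the measure was given no test. Ier2 had a log2 change of 1.01 at 15 min and rose by 2.28 at 45 min (limma adjusted p = 1.79e-04), while Cxcl1, with 2.27 at 45 min, was not called (limma adjusted p = 0.0631).

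Genes that work with the family or are controlled alongside it were described from 8 lists. Among the proteins reported to bind a GADD45 protein, 1 of 14 measured genes was called at 45 min against TTX, where 0.198% of all probes were called in either direction. That gene was Nr4a1, an orphan nuclear receptor and itself an immediate early gene, which rose by 4.20 ± 0.18 on the log2 scale (limma adjusted p = 8.98e-06). The list had a median of 0.12, where all probes had 0.05. The retinoid receptor gene Rxra (0.38) and Map2k7 (0.36), the JNK kinase that GADD45B can block, were the next in size and were not called. At 15 min limma's adjusted p called none of the 14 and 0.0198% of all probes. An unadjusted limma p under 0.05 was seen for 3 of the 14 and for 3.42% of all probes, with log2 changes in the list from -0.46 to 0.51, in both directions.

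Among the kinases, phosphatases and targets of the p38 and JNK pathways, 1 of 19 rose at 45 min, against 0.175% of all probes. It was Dusp1 (2.69 ± 0.15, limma adjusted p = 5.16e-05), and the median was 0.16. Jun, a transcription factor that JNK phosphorylates, had 1.11 ± 0.18 (limma adjusted p = 0.0713) and the JNK gene Mapk10 had -0.45. At 15 min against TTX limma called 0 of the 19. There 5 had an unadjusted limma p under 0.05, against 3.42% of all probes, and the list's changes ran from -0.46 to 0.51. Among the enzymes of DNA demethylation and base excision repair, 0 of 18 were called by limma in any of the 3 comparisons, in which 0.0198% (15 min against TTX), 0.198% (45 min against TTX) and 0.129% (45 against 15 min) of all probes were called in either direction. At an unadjusted p under 0.05, 2 of these genes passed at 45 min against TTX and 1 at 45 against 15 min, where 6.49% and 6.62% of all probes did, and 0 at 15 min against TTX. The median at 45 min was 0.07, and the largest values were those of the DNA ligase gene Lig3 (0.59 ± 0.18) and the methylcytosine dioxygenase gene Tet2 (0.37 ± 0.15). Of the genes reported to be demethylated with GADD45B, Bdnf, a neurotrophin, rose by 1.94 ± 0.18 at 45 min (limma adjusted p = 0.00195). It had -0.15 ± 0.18 at 15 min. These values are of the brighter of 2 kept Bdnf probes, and the other is not given here. Fgf1 did not pass the filter on dim probes.

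**Figure D4:**
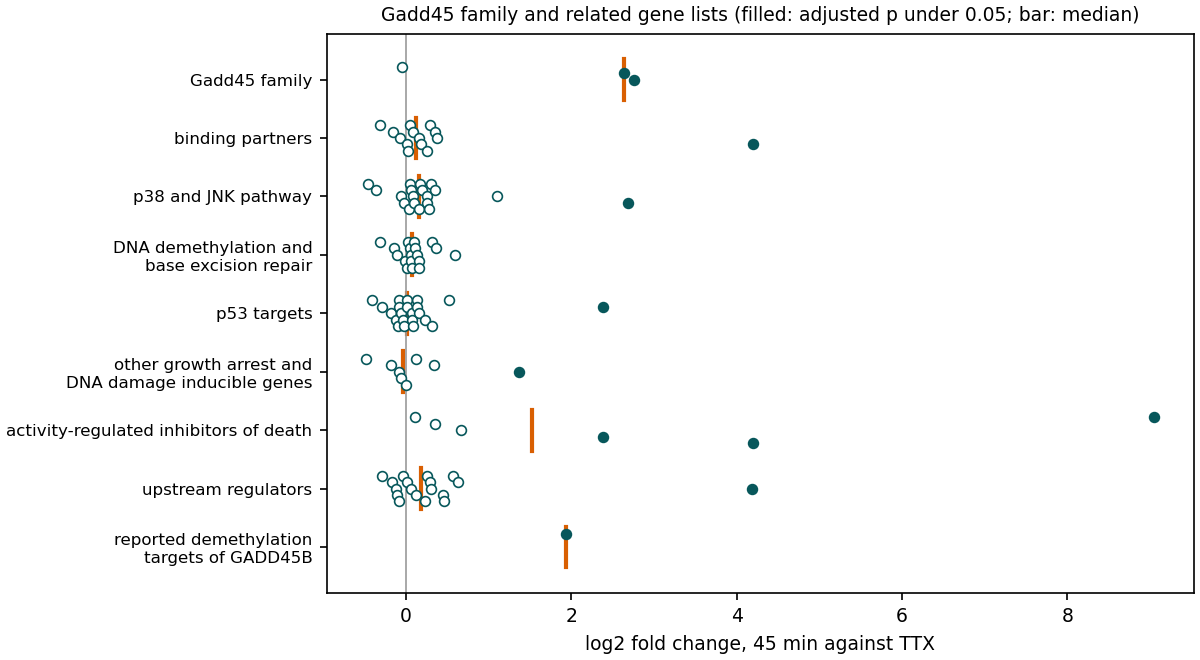
Each point is 1 gene, placed by its log2 fold change at 45 min against TTX, for the Gadd45 family and each of 8 related lists; filled points have a limma adjusted p under 0.05, and the bar is the list's median. Outside the family and the activity-regulated inhibitors of death, at most 1 gene per list is filled, and the point at 9.05 is Npas4, which was not above background in TTX.

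Among p53, its regulators and its targets, 1 of 22 rose at 45 min, where 0.175% of all probes were called higher. It was Btg2, an antiproliferative gene that is also an immediate early gene, with 2.39 ± 0.15 (limma adjusted p = 8.30e-05), and the median was 0.01. Plk3, a kinase of the stress response, had 0.52 ± 0.13 on the brighter of its 2 kept probes. Rrm2b, a ribonucleotide reductase subunit, had -0.41 ± 0.44, and stood above background on 1 of 3 W15 arrays and on every W45 and TTX array. Of 8 other genes named for growth arrest or DNA damage, 1 rose, Ppp1r15a (also called Gadd34), a phosphatase subunit that restores protein synthesis after stress, with 1.37 ± 0.15 (limma adjusted p = 0.00755). Its relative Ppp1r15b had -0.48 ± 0.19 and the growth arrest gene Gas7 had 0.34 ± 0.20. The median of these 8 genes was -0.03.

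In mouse hippocampal neurons Gadd45b and Gadd45g belong to a group of activity-regulated genes that protect against cell death. Of the other 6 measured genes of that group limma called Nr4a1 and Btg2 higher at 45 min, where 0.175% of all probes were called higher. As the group is one of activity-regulated genes, its share of calls is a description and not a test. Npas4, a neuronal transcription factor, was called too but is not counted with them. Npas4 stood above background on none of 3 TTX arrays, passed the filter on dim probes only through the arrays after washout, and so had to differ. It was at least 198-fold higher at 45 min and at least 19.5-fold higher at 15 min, taken over the lowest signal above background on those TTX arrays, with a limma adjusted p of 8.98e-06 and 0.00175 that is taken against TTX values not above background. Atf3, a stress-induced transcription factor, had 0.66 ± 0.12 (limma adjusted p = 0.116) and Inhba, a subunit of activin, had 0.36 ± 0.18 at 45 min, neither called. The median of the 6, with Npas4 included, was 1.53. Among transcription factors reported to act on a Gadd45 gene, 1 of 18 rose, Egr1, which was called at 15 min (2.11 ± 0.18, limma adjusted p = 0.00751) and at 45 min (4.19 ± 0.18, limma adjusted p = 8.98e-06). The median at 45 min was 0.18, and Foxo1 (0.64 ± 0.19) and Cebpb (0.58 ± 0.18) were not called. At 15 min against TTX limma called 0.0198% of all probes. Of the 8 lists it called only Egr1 and Npas4, and Npas4 was not measured above background in TTX. The lists overlap, since Nr4a1 and Btg2 each stand in 2 of them.

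Because Gadd45b and Gadd45g rose together and Gadd45a did not pass the test, their upstream sequences were compared, in the RefSeq promoter table of the GRCr8 build, which held all 3. The letters of 11 motifs were searched on both strands of the 250 bases before the transcription start, after the sequences had been seen. The table's start of Gadd45b lies inside the annotated gene, which also has a predicted transcript starting further upstream, so all 250 bases there are within the gene's span and only the stretches around its motifs are printed. The whole windows of Gadd45a, on chr4:97486800-97487049, and Gadd45g, on chr17:13530352-13530601, both on the minus strand, are given 5′ to 3′ with every motif match in capitals.
Gadd45a: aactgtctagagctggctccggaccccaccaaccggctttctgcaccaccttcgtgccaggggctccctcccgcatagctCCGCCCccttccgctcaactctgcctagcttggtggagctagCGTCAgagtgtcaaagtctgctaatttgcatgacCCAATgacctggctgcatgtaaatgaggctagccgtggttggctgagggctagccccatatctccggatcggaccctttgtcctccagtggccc
Gadd45g: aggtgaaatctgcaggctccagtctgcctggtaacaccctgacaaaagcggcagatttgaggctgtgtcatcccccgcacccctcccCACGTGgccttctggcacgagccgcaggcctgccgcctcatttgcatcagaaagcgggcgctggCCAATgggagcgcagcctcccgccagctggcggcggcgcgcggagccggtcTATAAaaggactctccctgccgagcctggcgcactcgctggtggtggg

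Gadd45b and Gadd45g each held 1 E-box of the letters CACGTG, at -178 to -173 in Gadd45b and -163 to -158 in Gadd45g, and Gadd45a held none. These letters occur in 5.59% of 33469 promoters of the same length. Both also held the letters TATAA of a TATA box near the start, at -38 to -34 in Gadd45b, where a match on the other strand overlaps it, and at -48 to -44 in Gadd45g, and Gadd45a held none. These letters occur anywhere in the window, on either strand, in 24.0% of promoters. The stretches of 30 bases around these matches are shown with the motif in capitals, the E-box first and then the TATA box, from chr7:9430879-9430908, chr17:13530497-13530526, chr7:9430739-9430768 and chr17:13530382-13530411 in that order.
Gadd45b E-box: agccctgaccccCACGTGgggccgccggag
Gadd45g E-box: cgcacccctcccCACGTGgccttctggcac
Gadd45b TATA box: cccgggcggtctTATAAgcggcttgcagcg
Gadd45g TATA box: gcggagccggtcTATAAaaggactctccct

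The CCAAT box occurred in all 3 windows, 2 times in Gadd45b and 1 time each in Gadd45a and Gadd45g, and is found in 34.0% of promoters. The GC box GGGCGG occurred 3 times in Gadd45b, 1 time in Gadd45a and not in Gadd45g (30.5% of promoters). The core of the cAMP response element, TGACG, was found in Gadd45a only (18.2% of promoters). The full element TGACGTCA, which contains that core (1.59%), the AP-1 letters TGANTCA (6.34%), the EGR letters GCGNGGGCG (4.29%), the SRF CArG box (1.50%), the MEF2 site (0.523%) and the NF-kB site (6.33%) had no match in any of the 3 windows. Matches are letters in a sequence and were not tested as binding sites, and these windows do not reach distant enhancers. The G and C content was 59.6% in Gadd45a and 66% in both others, against a median of 51.2% over all promoters.

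**Figure D5:**
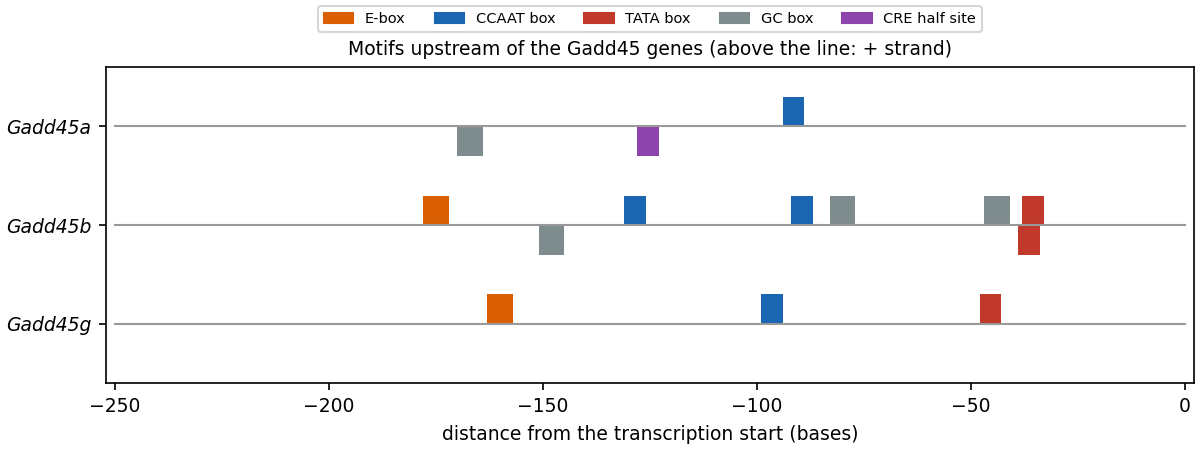
Boxes mark motif matches by distance from the transcription start in bases, above the line for the plus strand of the gene and below it for the minus strand; purple marks the core of the cAMP response element (CRE). Gadd45b and Gadd45g each show an E-box between -178 and -158 and a TATA box between -48 and -34, and Gadd45a shows neither.

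Signals of markers of other cells were compared between the groups, as the sum of signals relative to the 75th percentile. The astrocyte markers summed to 73.8 to 87.2 in TTX, 76.2 to 84.7 at 15 min and 67.6 to 90.4 at 45 min, and the neuronal markers to 114 to 137, 122 to 141 and 111 to 139 in the same order. Oligodendrocyte markers summed to 9.28 to 13.4, 10.3 to 16.3 and 9.21 to 14.8, and those of dividing cells to 14.2 to 16.6, 14.0 to 16.4 and 15.6 to 17.0. The 3 microglial markers that passed had 0.296 to 0.355, 0.286 to 0.301 and 0.168 to 0.345, and 6 of 7 fibroblast and vascular markers, all but Pecam1, had 1.73 to 2.01, 1.87 to 2.07 and 1.82 to 2.15. The ranges of the groups overlapped for every one of the 6 lists between TTX and 45 min. Which cells of the culture carried the Gadd45 signal, and whether more cells or more RNA per cell lay behind a rise, cannot be told apart in RNA of whole cultures.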

How the data were processed

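The authors deposited 9 scanner files of Agilent rat arrays (design 014879) and a value table. Per the file headers, they hold Cy3 spot intensity values from Agilent's Feature Extraction software, version 9.5.3.1, background-subtracted and detrended array by array and not scaled to each other. The submitters' processing notes give version 9.5. The same intensity values stand in the deposited value table (largest difference 0), linear and not centred. The scanner software's flags for background, saturation and outlier spots were used as deposited. From these, control spots (1639 of 45018) were left out, outlier spots set to missing, spots of a probe averaged, and log2 signals taken minus the array's 75th percentile. Probes well above background on all 3 arrays of a group were kept (30322 of 41012). All 9 arrays were fitted in limma 3.58.1 (R 4.3.3) with a mean per group; calls were made at an adjusted p (Benjamini-Hochberg, over all probes) under 0.05. Probes were tested singly, so that no gene was summarised. Probe names were matched to RefSeq GRCr8 (20912 of 41012 probes kept the name in the files). The lists name genes called in any comparison and the 2 next largest changes at 45 min, by the brightest kept probe. The fit and the exact test, run in Python 3.11.15, were tested on simulated data. Nothing states whether replicate numbers pair arrays across groups. In deviations from the group means, same-numbered pairs correlated at 0.06 to 0.38 and other pairs at -0.39 to 0.08. The main fit leaves such pairing out, and a replicate block was fitted as an alternative for all 3 comparisons. Alternatives were another background correction, scaling, filter or spread, slide or replicate blocks, and leaving out each array. The members and lists were chosen with earlier results of these data known.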

Additional observations from a re-analysis of the deposited data

How the results depend on the processing

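The rise of Gadd45g at 45 min against TTX kept its call in all 10 alternatives with a test (log2 change 2.50 to 2.80), and its rise at 45 against 15 min in 10 of 11. Gadd45g at 15 min lost its call with normexp (1.32), without scaling between arrays (1.08), with slide as a fixed block (1.24) and with the replicate block (1.28, adjusted p = 0.0749). Gadd45b at 45 against 15 min lost its call with no filter on dim probes, with the slide block, with the replicate block (adjusted p = 0.0549) and with only the groups compared (1.81 in each), and within slide 3 (1.53). Within slide 3 Gadd45g had 1.50. Gadd45b at 45 min against TTX had 2.85 with the slide block and was then not called. Gadd45a at 45 min changed sign with normexp (0.15) and the slide block (0.037). Within slide 1 Gadd45a had 0.037 at 15 min and -0.070 for 45 against 15 min, Gadd45b had 3.13 at 45 min and 2.37 for 45 against 15 min, and Gadd45g had 2.70 at 45 min. The cause of these changes was not tested.

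Probes called higher at 15 min numbered 1 with normexp, 0 with the slide block and 10 with only the groups compared, against 6 as reported. At 45 min against TTX they numbered 25 with normexp, 29 without scaling, 21 with the slide block and 32 with only the groups compared, against 53. For 45 against 15 min they numbered 16 with normexp, 21 without the filter, 21 with only the groups compared and 0 within slide 3, against 36. Leaving out 1 array gave 2 to 8, 30 to 90 and 20 to 78 probes in the 3 comparisons, with 90 and 78 without W45 replicate 1 and at most 33 and 23 without W45 replicate 2 or any TTX array. It gave log2 changes of 1.20 to 1.37 for Gadd45g and 0.62 to 0.93 for Gadd45b at 15 min, 2.74 to 2.78 and 2.47 to 2.88 at 45 min, and 1.39 to 1.56 and 1.64 to 2.05 for 45 against 15 min. For Gadd45a it gave -0.19 to -0.07, -0.12 to 0.02 and -0.0049 to 0.14, changing sign at 45 min without TTX replicate 2 (0.0044) or W45 replicate 1 (0.023) and for 45 against 15 min without W45 replicate 3 (-0.0049).

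The median log2 change of all probes at 15 and 45 min against TTX was 0.05 and 0.05 as reported, 0.20 and 0.12 with normexp, and -0.16 and -0.22 without scaling. The unequal change of Gadd45g and Gadd45b against Gadd45a held in every alternative run, with an adjusted exact permutation p of 0.00536 to 0.0417. Each of these was the smallest its own set of assignments allows, so their range does not measure strength. The run without scaling between arrays could not differ, as the difference on 1 array is unaffected by it. That of Gadd45g against Gadd45b held in none, at 0.075 to 0.529. No member has a second probe, so that alternative could not be run. Replicate numbers were not used in the main fit. Of 9 same-numbered pairs, 7 correlated over 0.1 in their deviations from the group mean (0.06 to 0.38, other pairs -0.39 to 0.08). Every array correlated best with one of its own number. Pairs of W15 and TTX arrays had 0.31, 0.38 and 0.22, so the replicate block matters most there, and with it Gadd45g at 15 min was not called (limma adjusted p = 0.0749). Besides this call and that of Gadd45b at 45 against 15 min, the replicate block changed no call of a Gadd45 probe.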
